A study of Mus musculus with 3 samples.

Results

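Metallothioneins and genes raised by glucocorticoid hormones were followed across the cell clusters and brains of a pool of mouse brain cells. The 8 genes were Mt1, Mt2, Mt3, Fkbp5, Tsc22d3, Sgk1, Zbtb16 and Apod, and all 8 were among the 17551 genes of the deposited table. They had been selected on measured values of these same cells, so their levels are given as descriptions with no test. The 4 brains were from C57BL/6 females, 2 to 3 months old; some were naive, and the others held metastases grown for about 2 weeks from E0771 mammary carcinoma cells given by carotid injection. After perfusion and papain digestion, a Percoll gradient was used to keep mononuclear cells, so cell numbers do not follow those of the tissue. Each brain carried its own hashtag antibody, the pool was run as 1 set of libraries by CITE-seq (mRNA and antibody tags counted in the same droplet), and no hormone or metal treatment is named in the sources used here. Those sources do not say which hashtags marked naive brains. Each brain is therefore given by its hashtag number, and naive and metastatic brains were not compared.

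Metallothioneins are small cysteine-rich proteins that bind zinc and copper. Mt1 and Mt2 are transcribed in most cell types and rise with zinc, through the metal-sensing factor MTF1, and with glucocorticoids, while Mt3 is known as the brain form. Glucocorticoids act through the receptor encoded by Nr3c1, which enters the nucleus and raises a set of target genes found in many tissues. Among them, Fkbp5 encodes a co-chaperone that dampens the receptor, Tsc22d3 encodes the anti-inflammatory protein GILZ, Sgk1 encodes a kinase that acts on ion transport, and Zbtb16 encodes a zinc-finger repressor. Apod encodes apolipoprotein D, a secreted lipid carrier made by glia, fibroblasts and vessel-associated cells.

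Mt1, Mt2 and Mt3 lie in a single cluster of genes on chromosome 8 (build GRCm38.p6, the RefSeq annotation). Mt3 spans chr8:94152607-94154148, Mt2 spans chr8:94172618-94173567 and Mt1 spans chr8:94178883-94180327, and the Mt1 start used below lies inside that span. Fkbp5 (chr17:28398753-28486149), Tsc22d3 (chrX:140539528-140600522), Sgk1 (chr10:21882184-21999903), Zbtb16 (chr9:48651797-48836225) and Apod (chr16:31296192-31314808) lie elsewhere. The 250 bases before an annotated start are shown for these 3 genes because Mt1 and Mt2 followed each other across cells and clusters and Mt3 had another pattern. All 3 are on the plus strand, from RefSeq. Capitals mark matches on either strand to TGCNCNC, a loose form of the core of the metal response element, with any base at N. Some of these matches may not meet a stricter form of that core. In Mt1 capitals also mark the match to the glucocorticoid response element (GNACA, any 3 bases, TGTNC).
Mt1, chr8:94178839-94179088: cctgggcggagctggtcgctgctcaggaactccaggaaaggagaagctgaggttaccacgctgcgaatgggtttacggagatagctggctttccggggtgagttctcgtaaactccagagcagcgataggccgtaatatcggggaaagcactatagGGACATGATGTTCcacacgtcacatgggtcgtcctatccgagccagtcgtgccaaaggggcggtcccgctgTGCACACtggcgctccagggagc
Mt2, chr8:94172368-94172617: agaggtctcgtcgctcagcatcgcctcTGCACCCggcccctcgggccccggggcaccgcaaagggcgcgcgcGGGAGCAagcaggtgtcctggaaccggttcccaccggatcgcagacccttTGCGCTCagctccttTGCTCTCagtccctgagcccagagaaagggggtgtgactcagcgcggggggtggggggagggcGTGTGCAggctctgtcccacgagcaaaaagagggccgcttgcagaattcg
Mt3, chr8:94152357-94152606: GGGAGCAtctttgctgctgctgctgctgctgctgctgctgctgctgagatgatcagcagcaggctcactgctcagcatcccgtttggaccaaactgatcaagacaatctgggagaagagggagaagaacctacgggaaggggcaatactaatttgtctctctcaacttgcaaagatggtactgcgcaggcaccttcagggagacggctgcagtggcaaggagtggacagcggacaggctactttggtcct

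In windows of 300 bases, which add the 50 bases after the start, this loose metal pattern matched 3 times for Mt1, 6 times for Mt2 and 3 times for Mt3. Of 32851 RefSeq promoter windows of that length, 51% held at least 1 match, 7.1% at least 3 and 0.225% at least 6. The glucocorticoid motif matched once in the Mt1 window, 94 bases before the start, and in 1 of 6 Sgk1 windows, against 0.475% of all windows. It had no match in the windows of Mt2, Mt3, Fkbp5, Apod and Tsc22d3 (3 windows), and Zbtb16 had no window in the table. A match is a match of letters only, other starts of these genes were not searched, and the 2 motifs did not overlap in the Mt1 window.

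The table held 4668 cells with distinct barcodes, in 11 deposited clusters numbered 0 to 10 that carry no cell type names. The brains with hashtags 1, 2, 3 and 4 gave 844, 410, 1385 and 2029 cells with a median of 4370.5, 5599.5, 12450 and 12806 UMIs (unique molecular identifiers, each 1 captured mRNA). In 47.2%, 37.6%, 69.6% and 79.6% of cells at least 80% of the hashtag counts came from the cell's own hashtag, so droplets of brains 1 and 2 were less clearly assigned. Cluster 4 held 295 cells and was highest of all clusters in 12 of 12 endothelial markers, among them the tight junction gene Cldn5, while its summed endothelial marker level was 83.4, 70.8, 69.2 and 33.7 per 10000 UMIs in the brains with hashtags 1 to 4. Cluster 1 (880 cells) was highest in 9 of 10 choroid plexus markers and cluster 3 (404 CD45-tagged cells) in 8 of 8 microglia markers and 5 of 8 general immune markers. Cluster 3 was also highest in 3 of 6 T cell markers, and its leading gene was the immunoglobulin gene Igkc. Between brains its summed microglia level ran from 15 to 57.9 and its neutrophil level from 20 to 111. It is therefore not treated as 1 cell type, and its brains may differ in the cells they hold. Cluster 8 (185 cells) stayed unnamed, because it was highest in 6 of 9 fibroblast markers and in 8 of 10 astrocyte markers. Its summed erythroid marker level was 138, 251, 4.24 and 2.54 in the brains with hashtags 1 to 4, and the part of those cells' RNA in its values was not tested. The remaining clusters are called by number.

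A level below is the number of UMIs of a gene per 10000 UMIs of a cluster in a brain, summed over its cells, for the 35 combinations of cluster and brain with at least 20 cells. Levels of different genes come from a 3' assay that counts transcript ends, so length does not enter. The 95% intervals are exact Poisson intervals and cover counting error only. The clusters had been made from the same cells, so a cluster against the others is a description as well.

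Mt1 was the most abundant of the 8 genes, with 56988 UMIs and at least 1 UMI in 92.9% of cells. Its highest median over brains was in endothelial-like cluster 4, where the level was 23.0, 16.0, 25.5 and 11.9 per 10000 UMIs in the brains with hashtags 1, 2, 3 and 4. The hashtag 3 and 1 brains were high there, with overlapping intervals (24.2 to 26.9 and 21.4 to 24.7), and the hashtag 4 brain was low. That brain was also lowest in summed endothelial markers in this cluster, and the part of other cells' RNA in its level was not tested. Clusters 7, 10, 8 and 0 came next at medians of 15.9, 15.6, 14.8 and 12.4, and the brains of each of these neighbours overlapped. The medians of clusters 7 and 10 rest on the hashtag 3 and 4 brains alone. Cluster 4 did not lead in every brain. Clusters 8 (119) and 3 (26.0) were above it in the hashtag 3 brain, and cluster 10 (13.5) in the hashtag 4 brain. Choroid plexus-like cluster 1 was lowest by median, at 4.64, 4.03, 6.97 and 6.58, below every brain of cluster 4.

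Mt2 was lower than Mt1 in all 35 combinations. In cluster 4 it stood at 7.10, 4.25, 17.6 and 4.27 per 10000 UMIs in the brains with hashtags 1 to 4, so the hashtag 3 brain was high and the other 3 lay within a narrower span. Cluster 10 had a slightly higher median (5.74 against 5.69), but cluster 4 was the higher of the pair in both brains that held enough cells of each. CD45-tagged cluster 3 was lowest by median over brains, at 0.790, 0.647, 4.04 and 1.03. Cluster 5 was below it in the hashtag 1 and 2 brains (0.269 and 0.425), and cluster 1 in the hashtag 2 brain (0.462). In the hashtag 3 brain clusters 0 (3.92), 1 (1.72) and 6 (1.51) were below it. Mt1 and Mt2 are closely related in sequence, and how reads that fit both were counted is not given in the sources used here.

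**Figure D1:**
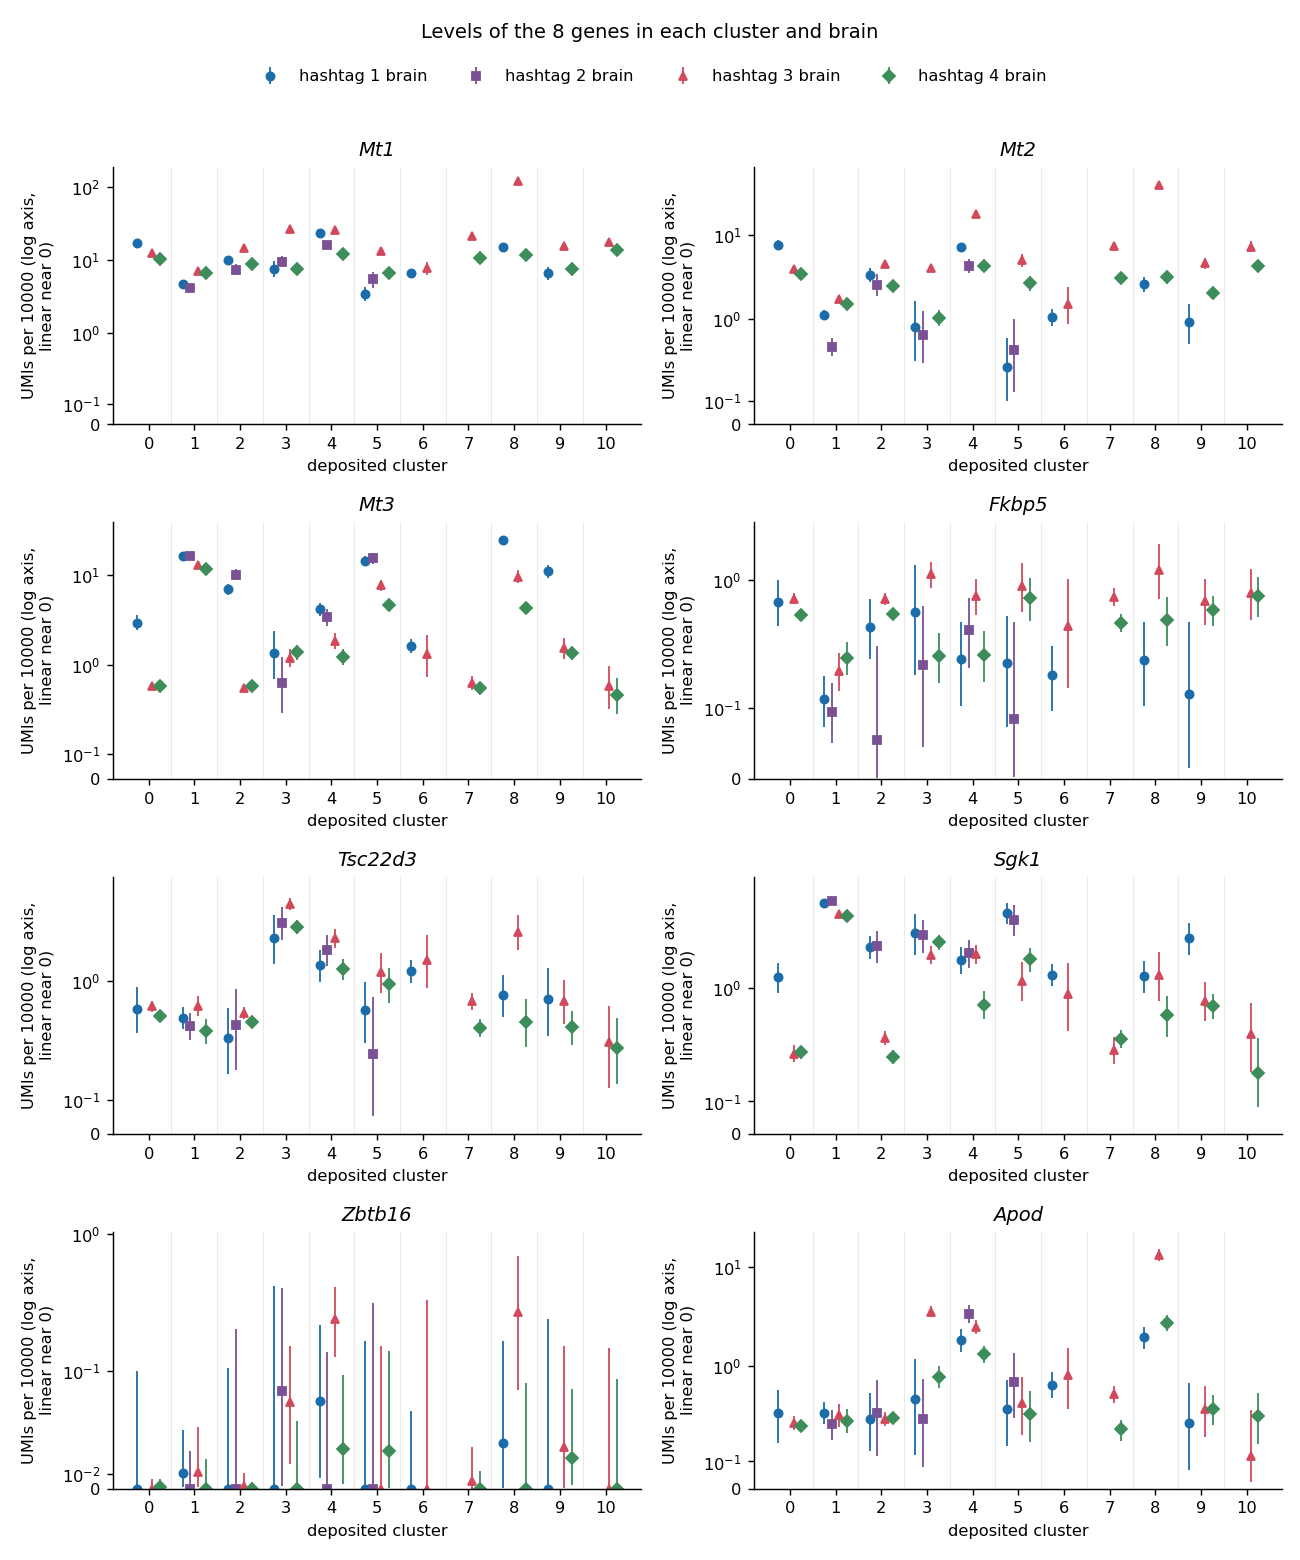
Level of each of the 8 genes (UMIs per 10000, log axis that turns linear near 0) in the 11 deposited clusters, 1 point per brain with at least 20 cells, bars showing exact Poisson 95% intervals. Mt1 is broad and highest by median in cluster 4, Mt3 and Sgk1 lead in cluster 1, Tsc22d3 in cluster 3 and Apod in cluster 8, while the hashtag 3 brain (triangles) tops most clusters for Mt1, Mt2, Fkbp5 and Tsc22d3.

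In cluster 4 the hashtag 3 brain stood apart in its cells with the most Mt1 and Mt2, and for Mt2 at the median as well. The median cell held Mt1 at 15.2, 13.1, 13.1 and 8.13 per 10000 UMIs in the brains with hashtags 1 to 4, so at the median the hashtag 3 brain was not the highest. For Mt2 the median cell held 3.53, 2.87, 5.55 and 1.15, with the hashtag 3 brain highest. At the 90th percentile the Mt1 values were 56.0, 37.9, 125 and 31.0, and the hashtag 3 brain stood above the others. Mt1 exceeded 100 per 10000 in 12 of 81 cells of that brain (14.8%, exact binomial 95% interval 7.90 to 24.4), and in 0 of 72, 0 of 56 and 0 of 86 cells of the brains with hashtags 1, 2 and 4, where a limit of 3 cells allows shares of up to 4.17%, 5.36% and 3.49%. For Mt2 a level above 50 was found in 21 of 81 cells (25.9%, interval 16.8 to 36.9), against 0, 0 and 2 cells in the other 3 brains.

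Mt2 also made up a larger part of the metallothionein mRNA there. Of the summed Mt1 and Mt2 UMIs of cluster 4, Mt2 took 23.6%, 21.0%, 40.8% and 26.4% in the brains with hashtags 1 to 4, with an exact binomial interval of 38.8 to 42.8 for the hashtag 3 brain. In cluster 3 the share was 9.59%, 6.47%, 13.4% and 12.2%, and in cluster 8 the hashtag 1, 3 and 4 brains stood at 14.9%, 25% and 21%. The ratio of the 2 genes therefore differed between clusters as well as between brains.

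Across single cells Mt1 and Mt2 rose and fell together. The Pearson correlation of their logged values within a cluster and brain had a median of 0.59 over 35 combinations, ran from -0.20 to 0.87 and was positive in 34. In cluster 4 it was 0.59, 0.69, 0.85 and 0.59 in the brains with hashtags 1 to 4. Cells of a combination share a library and differ in depth, and thinning every cell to 2495 UMIs left a median of 0.39. The same median for Mt1 with Mt3, Apod, Fkbp5 and Tsc22d3 was -0.03, 0.07, 0.06 and 0.07. In cluster 4 of the hashtag 3 brain cells with more Mt1 held fewer UMIs in all (r of -0.44 with logged UMIs), and the part of depth there was not tested.

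In cluster 4, the gene that followed Mt2 most closely across cells after Mt1 was Pglyrp1, with r of 0.38, 0.44, 0.48 and 0.04 in the brains with hashtags 1 to 4. Slco1a4, an organic anion carrier of the blood-brain barrier, came next with 0.31, 0.43, 0.36 and 0.08, followed by the small heat shock gene Hspb1 with 0.30, 0.32, 0.42 and 0.23. Of these 3 genes only Hspb1 kept an r above 0.2 in the hashtag 4 brain. They were named after the ranking of 3236 genes had been seen.

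**Figure D2:**
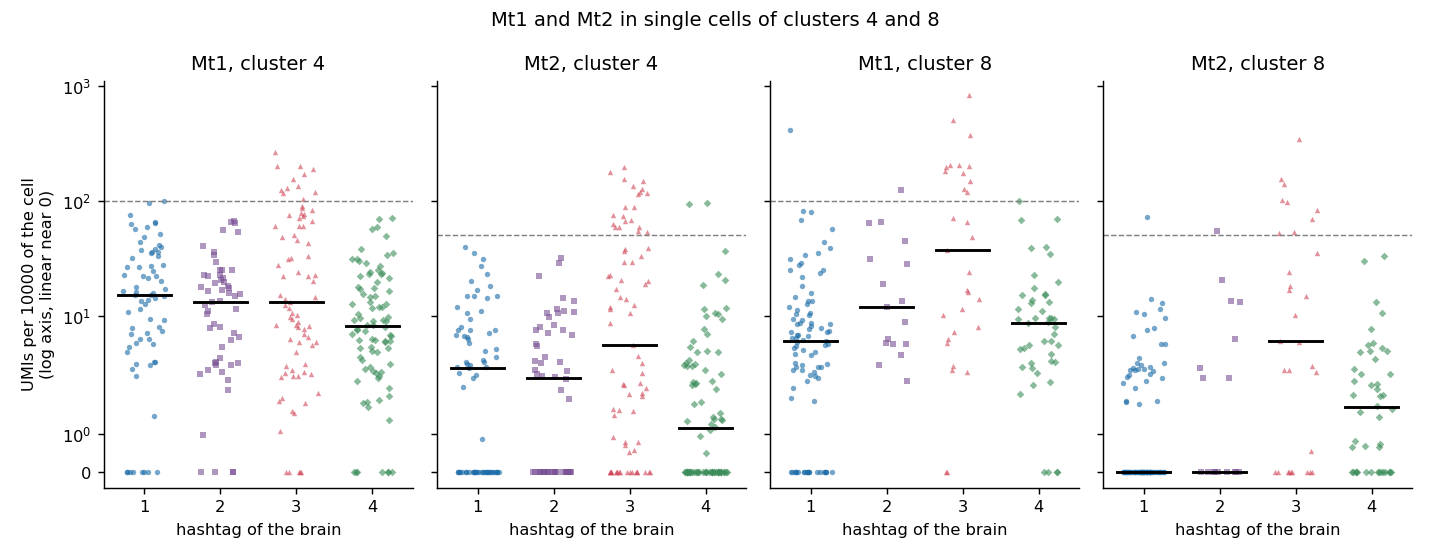
Mt1 and Mt2 in each cell of clusters 4 and 8 (UMIs per 10000 of the cell, log axis that turns linear near 0), by the hashtag of the brain, with the median as a black line and a dashed line at 100 for Mt1 and 50 for Mt2. In cluster 4 the medians of the brains lie close together for Mt1, and 12 of 81 cells of the hashtag 3 brain lie above the dashed line.

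The highest Mt1 and Mt2 of the 35 combinations were in cluster 8 of the hashtag 3 brain. Mt1 stood at 14.8, 119 and 11.7 per 10000 UMIs in the brains with hashtags 1, 3 and 4, and at 26.5 in the 17 cells of the hashtag 2 brain, which is under the minimum of 20 cells. Mt2 stood at 2.59, 39.7 and 3.12 in the same 3 brains, and at 6.96 in the 17 cells. Of 31 cells of the hashtag 3 brain 12 had Mt1 above 100, against 1 of 91, 1 of 17 and 0 of 46 cells in the brains with hashtags 1, 2 and 4. That count rests on 31 cells, and in the 16 of them with at least 80% of hashtag counts from their own hashtag the Mt1 level was 148.

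The cells of cluster 8 did not all carry the same markers. They were parted by UMIs of the fibroblast and the astrocyte marker lists, at least 2 of 1 list and more than of the other, a rule set after the cells had been seen. This gave 42 cells with fibroblast markers, 56 with astrocyte markers and 87 with neither, of which 86 had Ttr, the thyroid hormone carrier made by the choroid plexus, above 500 per 10000. These are ranges of cells and not named types: 7 of the 42 and 6 of the 56 cells sat exactly at 2 marker UMIs, and 42 of the 87 had exactly 1.

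In the cells with fibroblast markers Mt1 stood at 18.9, 7.58, 228 and 14.4 per 10000 UMIs in the brains with hashtags 1 to 4, from 13, 4, 14 and 11 cells. The hashtag 3 brain was the high one, and the median of its 14 cells was 160. Mt2 followed with 3.82, 0.758, 82.6 and 3.82. In the cells with astrocyte markers Mt1 was 34.0, 49.0, 63.8 and 11.5, from 15, 7, 7 and 27 cells. In these sums the brains were closer to each other and the hashtag 4 brain was low. The median cell held 11.9, 44.9, 37 and 9.47, so by that measure the hashtag 1 brain was low as well. Cells with neither list held Mt1 at 6.38, 8.24, 29.9 and 4.39, from 63, 6, 10 and 8 cells. Their median cell held 4.67, 5.13, 4.98 and 3.62, so the hashtag 3 brain was high there in the sum and not at the median.

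Apod differed between these ranges. It stood at 10.4, 12.9, 34.2 and 10.5 per 10000 UMIs in the cells with fibroblast markers of the brains with hashtags 1 to 4, and at 0.882, 0, 0.346 and 0.378 in those with astrocyte markers. A level of 0 came from 7 cells. In every brain the range with fibroblast markers was the higher of the pair, and 375 of the Apod UMIs of cluster 8 lay in its 42 cells against 21 in the 56 cells with astrocyte markers and 9 in the other 87.

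**Figure D3:**
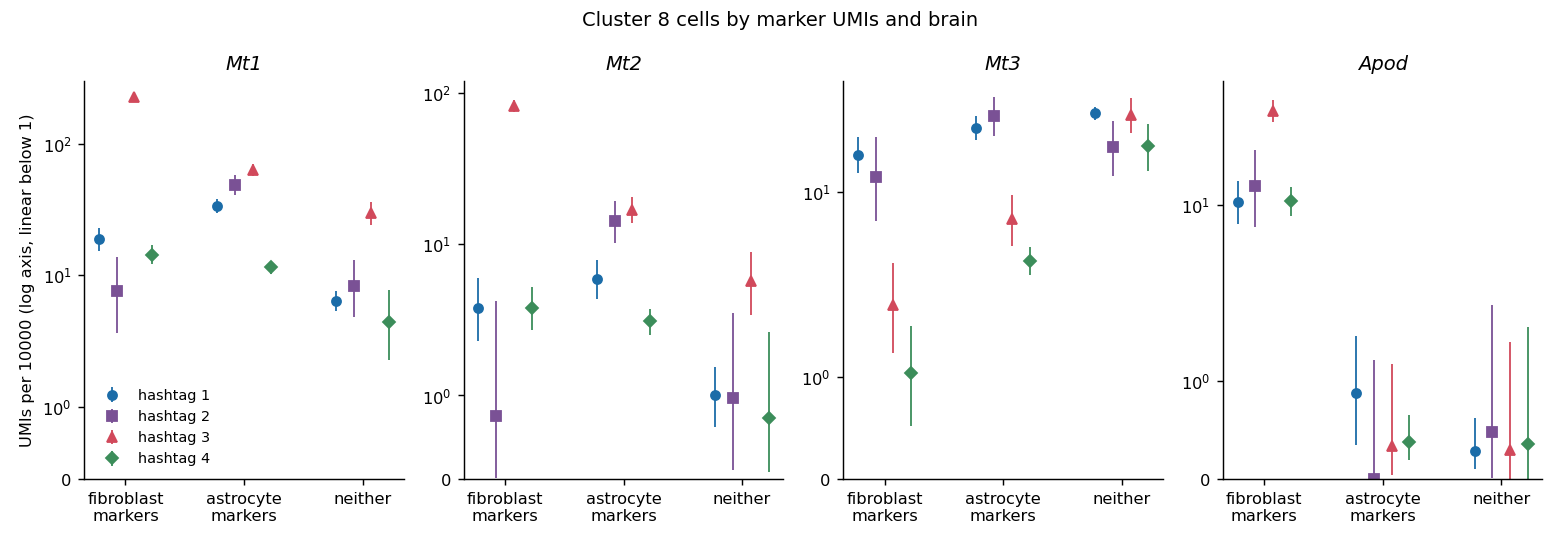
Levels of Mt1, Mt2, Mt3 and Apod (UMIs per 10000, log axis that turns linear below 1) in 3 ranges of cluster 8 cells parted by marker UMIs, 1 point per brain with exact Poisson 95% intervals. Mt1 reaches 228 in the fibroblast-marker cells of the hashtag 3 brain, Apod is above 10 in the fibroblast-marker cells of every brain, and Mt3 is between 17.4 and 26.6 in the cells with neither marker list.

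Mt3 had another pattern. It was highest by median in choroid plexus-like cluster 1, at 15.9, 16.3, 12.9 and 11.5 per 10000 UMIs in the brains with hashtags 1 to 4, followed by cluster 5 at 14.3, 15.1, 7.64 and 4.64. In both clusters the hashtag 4 brain was lowest, and cluster 1 was the higher of the pair in all 4 brains. Cluster 8 held 24.0, 9.57 and 4.3 in the brains with hashtags 1, 3 and 4. Its hashtag 1 value was the highest of the 35 combinations, and it was above cluster 5 in 2 of these 3 brains. Endothelial-like cluster 4 held 4.17, 3.39, 1.87 and 1.25. Clusters 0, 7 and 10 were near the bottom, with medians of 0.592, 0.606 and 0.535.

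Over the 35 combinations Mt3 followed Ttr with r of 0.98, while Mt1 and Mt2 stood at -0.32 and -0.35 against Ttr. Ttr was found in every cluster, from 101 per 10000 UMIs in cluster 10 of the hashtag 3 brain to 3208 in cluster 1 of the hashtag 2 brain. If Ttr brought Mt3 along at the ratio seen in cluster 1 of the same brain, the Mt3 so computed would come to a median of 86.8% of the measured level (range 57.5 to 142) in the 24 combinations outside clusters 1, 5 and 8. In cluster 8 the same figure came to 56.7%, 52.6% and 51.4% in brains 1, 3 and 4 by hashtag, so Mt3 was above that ratio in all 3. What part choroid plexus RNA free in the suspension had in the Mt3 of other clusters was not tested.

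The cells of cluster 8 without either marker list carried Ttr at 3467, 3102, 2736 and 3503 per 10000 UMIs in the brains with hashtags 1 to 4, beside 2645 to 3208 in cluster 1. Their Mt3 was 26.6, 17.4, 26.0 and 17.6, from 63, 6, 10 and 8 cells, beside 15.9, 16.3, 12.9 and 11.5 in cluster 1 of the same brains. In the hashtag 2 brain the interval of these cells (12.2 to 24.2) included the value of cluster 1. In cells with astrocyte markers Mt3 was 22.2, 25.7, 7.09 and 4.22, beside Ttr of 1216, 1104, 1090 and 325. In cells with fibroblast markers it was 15.9, 12.1, 2.45 and 1.05, beside Ttr of 1863, 1724, 436 and 278.

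Sgk1 also led in cluster 1, at 5.32, 5.57, 4.24 and 4.08 per 10000 UMIs in the brains with hashtags 1 to 4, and was higher there than in cluster 5, the next, in 4 of 4 brains. It followed Ttr less closely than Mt3 did, with r of 0.79. In cluster 3 it stood at 2.93, 2.80, 1.90 and 2.44, and the Sgk1 computed from Ttr at the ratio of cluster 1 would come to 14.6%, 10.7%, 14.3% and 20.8% of that. In cluster 8 the order was the other way round: Sgk1 stood at 1.25, 1.28 and 0.579 in the same 3 brains, below the level that its Ttr would bring. Summed over all its cells, cluster 8 thus had more Mt3 and less Sgk1 per Ttr than cluster 1 in the brains with hashtags 1, 3 and 4.

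**Figure D4:**
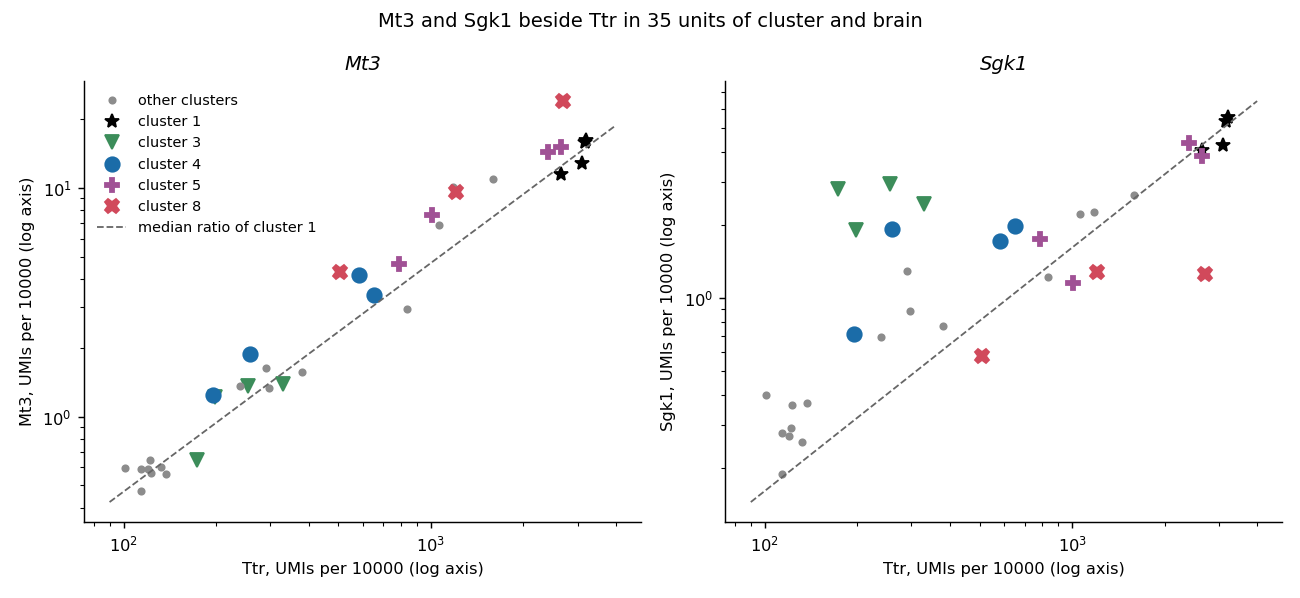
Mt3 and Sgk1 against Ttr (UMIs per 10000, both axes logarithmic) in the 35 combinations of cluster and brain with at least 20 cells, with a dashed line at the median ratio of cluster 1. Mt3 stays near the line in most clusters and above it in cluster 8, while Sgk1 lies above the line in cluster 3 and below it in cluster 8.

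Tsc22d3 was highest in CD45-tagged cluster 3, at 2.26, 3.02, 4.32 and 2.80 per 10000 UMIs in the brains with hashtags 1 to 4. Cluster 4 came next at 1.36, 1.83, 2.26 and 1.26, below cluster 3 in 4 of 4 brains by a median log2 difference of 0.80. The other clusters lay between medians of 0.301 (cluster 10) and 1.36 (cluster 6, highest in 7 of 7 neutrophil markers). After thinning each cell to 2495 UMIs, 47.6%, 55.9%, 63.9% and 42.3% of cluster 3 cells held a Tsc22d3 UMI, and 57.1%, 67.6%, 78.7% and 61.3% without thinning.

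Fkbp5 was low in every cluster, with medians from 0.156 in cluster 1 to 0.776 in cluster 10. In cluster 3 it stood at 0.564, 0.216, 1.11 and 0.253 per 10000 UMIs in the brains with hashtags 1 to 4, from 5, 3, 75 and 21 UMIs. In cluster 4 it was 0.242, 0.410, 0.753 and 0.260, and the interval of the hashtag 3 brain (0.540 to 1.02) overlapped only that of the hashtag 2 brain (0.205 to 0.734). In cluster 8 the brains with hashtags 1, 3 and 4 held 0.238, 1.21 and 0.490. The hashtag 3 brain was the high one in all 3 of these clusters.

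Zbtb16 was at the limit of detection, with 39 UMIs in all cells. Of these 17 lay in cluster 4, as 2, 0, 13 and 2 UMIs in the brains with hashtags 1 to 4. The 13 UMIs gave 0.239 per 10000 (interval 0.127 to 0.408) and lay in 13.6% of the 81 cells, while 0 UMIs in the hashtag 2 brain allows a level of up to 0.112, taking 3 counts as the limit. Cluster 8 of the hashtag 3 brain had 0.269 (interval 0.0734 to 0.69), from 4 UMIs in its 31 cells. Zbtb16 was seen in 0.771% of cells and so stayed outside the genes compared between clusters, which had to be seen in at least 1% of cells.

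Apod was highest in cluster 8, at 1.93, 13.4 and 2.74 per 10000 UMIs in the brains with hashtags 1, 3 and 4, with the fibroblast-marker cells as its main source there. Cluster 4 came next at 1.81, 3.36, 2.48 and 1.31, below cluster 8 in 3 of 3 brains. In the hashtag 2 brain 1 cell of cluster 4 reached 213 per 10000, and there only 32.1% of cells held a UMI. Clusters 3 and 6 had medians of 0.612 and 0.718, and the others lay between 0.213 (cluster 10) and 0.385 (cluster 5). Cluster 3 of the hashtag 3 brain stood out at 3.54, with 9 of 155 cells above 10.

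Set against the equal-weight mean of the other clusters, a gene was called where it was at least 2-fold higher, or lower, in every brain with at least 20 cells of the cluster, on the scale of level plus 0.1. In cluster 4 the rule called 1.5% of 12669 genes higher and 0.655% lower, and none of the 7 members seen in at least 1% of cells was among them. Mt2 had log2 ratios of 1.64, 1.96, 1.13 and 0.69 in the brains with hashtags 1 to 4, and without the hashtag 4 brain it was called higher. Mt3 had -1.21, -1.61, -0.93 and -1.12, and without the hashtag 3 brain it was called lower. Mt1 had 1.38, 1.29, 0.01 and 0.37 and Apod 1.51, 2.82, 0.30 and 0.98, beside a median over all genes of 0.01. In the hashtag 3 brain the mean of the other clusters includes the 31 cells of cluster 8, with Mt1 at 119 and Apod at 13.4.

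In cluster 8 the rule called 0.316% of genes higher and 0.56% lower over 3 brains. Apod was the only member called, higher with log2 ratios of 1.63, 3.74 and 2.35 in the brains with hashtags 1, 3 and 4, beside a median over all genes of -0.15. The members had been selected on such values, so nothing is read from this count. Mt3 had 1.71, 1.69 and 0.77, and without the hashtag 4 brain it was called as well. In cells with at least 80% of hashtag counts from their own hashtag the call of Apod was lost, with a median log2 ratio of 1.20 to the other clusters and of -0.23 to cluster 4. These medians are over the hashtag 1 and 4 brains alone, since the hashtag 3 brain kept 16 cells of cluster 8, under the minimum. In such cells the hashtag 1 brain had Apod at 1.12 in cluster 8 against 3.31 in cluster 4, while the hashtag 4 brain had 3.15 against 1.49. The brain left out had 21.5 against 3.07.

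For 4 of the 8 genes the order of the brains was alike at the top, while the lowest brain differed between clusters. Clusters 1 to 5 held at least 20 cells of every brain, and in all 5 the hashtag 3 brain was highest for Mt1, Mt2 and Tsc22d3. For Fkbp5 it was highest in 4 of the 5, with the hashtag 4 brain above it in cluster 1. Being highest in all 5 clusters was met in the brains with hashtags 1, 2, 3 and 4 by 0.253%, 0.442%, 0.26% and 0.71% of the genes, and by 0, 0, 3 and 0 of the 8 members. This order was looked at after the values had been seen, and the members may have been selected on it. Clusters 2 and 5 did not hold like cells in every brain. In cluster 2 Ttr stood at 1061, 1181, 137 and 132 per 10000 UMIs in the brains with hashtags 1 to 4. Rhox5, of the mammary carcinoma marker list, stood there at 2.65, 2.92, 5.52 and 5.23. In cluster 5 Ttr was 2400, 2653, 1008 and 786, and Rhox5 0.627, 0.595, 2.42 and 3.24. What part this had in the order of the brains was not tested.

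The size of this difference varied by gene. Relative to the mean of the other 3 brains, the median log2 ratio of the hashtag 3 brain over the 5 clusters was 1.74 for Mt2, 1.08 for Fkbp5, 0.73 for Mt1 and 0.58 for Tsc22d3, beside -0.01 over all genes. Mt3 and Sgk1 went the other way, at -0.57 and -0.50, and Apod and Zbtb16 both had 0.10. Over all 11 clusters, counting brains with enough cells, the hashtag 3 brain was highest in 10 for each of Mt1, Mt2, Fkbp5 and Tsc22d3, and in 2 each for Mt3 and Sgk1.

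The gap to the next brain was small in some clusters. For Mt1 it was 0.08 on the log2 scale in cluster 1 (6.97 against 6.58, with overlapping intervals) and 0.15 in cluster 4, but 1.47 in cluster 3 (26.0 against 9.34) and 0.98 in cluster 5. For Mt2 it was 0.19 in cluster 1 and 1.88 in cluster 3. For Tsc22d3 it ran from 0.22 to 0.50 over the 5 clusters. In cells with at least 80% of hashtag counts from their own hashtag, clusters 1 and 4 alone kept enough cells of every brain. Mt2 was still highest in the hashtag 3 brain in both, while Mt1 in cluster 1 was 8.10 against 8.39 in the hashtag 4 brain and Tsc22d3 in cluster 4 was 2.5 against 2.61 in the hashtag 2 brain. Over the 8 clusters with at least 10 cells of every brain, 0 members were highest in the hashtag 3 brain in all.

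**Figure D5:**
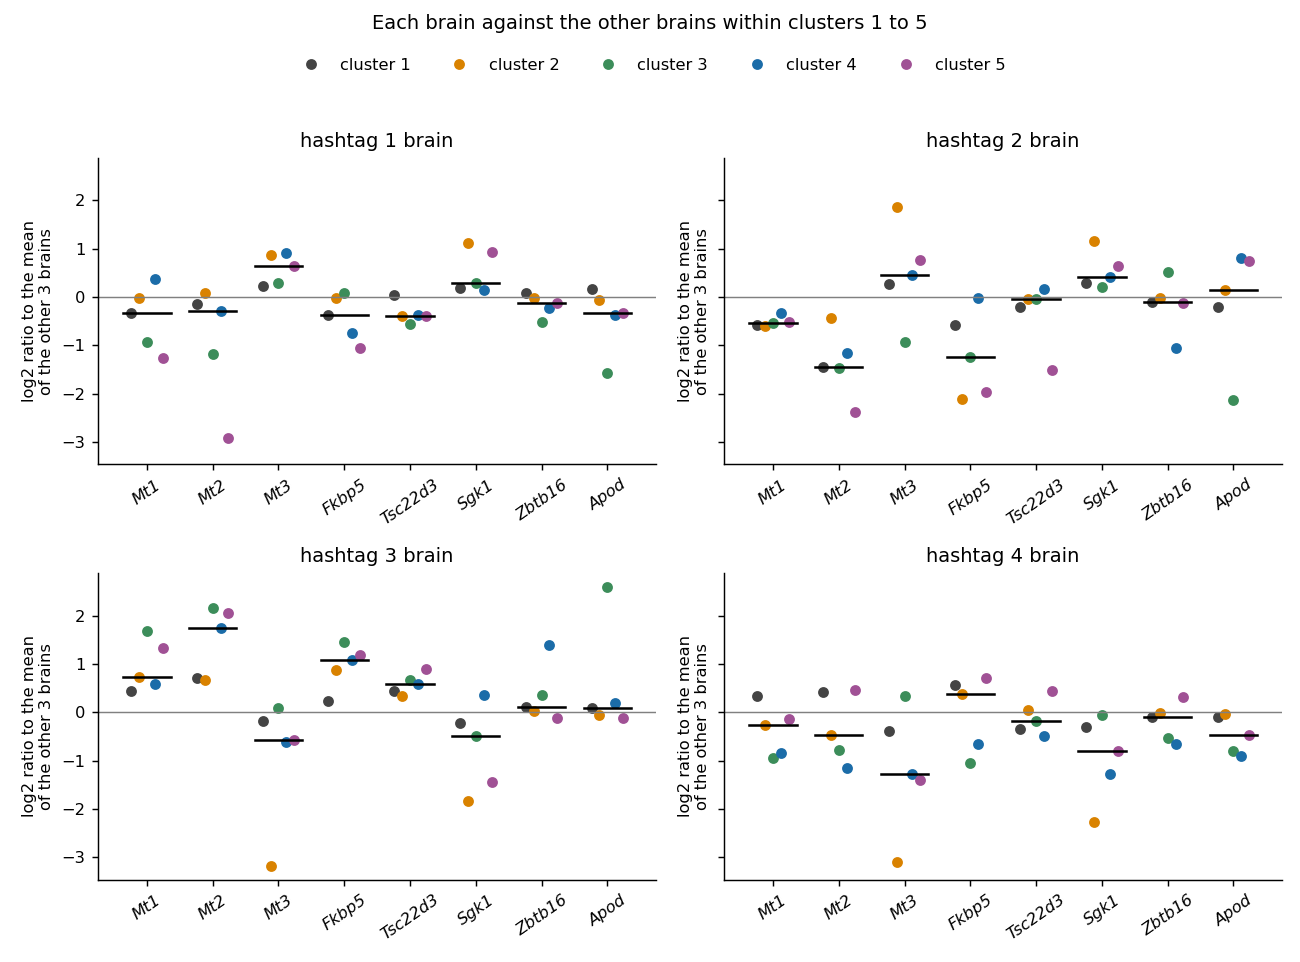
Log2 ratio of each brain to the mean of the other 3 brains (level plus 0.1) for the 8 genes, 1 panel per brain and 1 point per cluster from 1 to 5, with the median as a black line. In the hashtag 3 panel all 5 points of Mt1, Mt2, Fkbp5 and Tsc22d3 lie above 0, and the medians of Mt3 and Sgk1 lie below 0.

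Other genes described as raised by glucocorticoids were listed beside the members, and 38 of 40 were measured. Of the 36 seen in at least 1% of cells, 0 were highest in the hashtag 3 brain in all 5 clusters, beside 0.26% of all genes. The list's median log2 ratio of that brain to the others was 0.07, beside -0.01 over all genes. The list includes the clock gene Per1, the phosphatase gene Dusp1 and Klf9. The same count was 0 of 11 for receptor and hormone-handling genes (median -0.15) and 0 of 22 for zinc transport and metal response genes (median -0.00). At a share of 0.26% a count of 0 is usual for lists this short, so nothing is read from these counts.

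Against the other clusters, the glucocorticoid list had 2 of 36 genes called higher and 0 lower in cluster 4, with a median log2 ratio of 0.34, beside 1.5% higher, 0.655% lower and a median of 0.01 over all genes. They were Acer2, a ceramidase gene, at 0.604, 0.298, 1.19 and 0.312 per 10000 UMIs in the brains with hashtags 1 to 4, and Cdkn1a, an inhibitor of the cell cycle, named after its values had been seen. Rasd1, Tgm2 and Nfkbia had medians of 2.15, 1.91 and 1.58 but missed the rule in at least 1 brain. Nfkbia, which encodes an inhibitor of NF-kB, was the most abundant of these at 19.6, 8.31, 16.3 and 7.05. In cluster 8 the list had 0 called in either direction, beside 0.316% higher and 0.56% lower over all genes, and a median of -0.36, with Cdkn1c highest at 1.03 and Lcn2 lowest at -3.13.

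Of the receptor and hormone-handling genes 1 of 11 was called higher in cluster 4 and 0 lower (1.5% and 0.655% of all genes), with a median log2 ratio of 0.08. It was Abcb1a, which encodes a pump that keeps corticosteroids out of the brain and was also on the list of endothelial markers. Nr3c1, the glucocorticoid receptor gene, stood in cluster 4 at 1.15, 0.820, 0.312 and 0.389 per 10000 UMIs in the brains with hashtags 1 to 4. The hashtag 1 and 2 brains were the high ones there, unlike for Mt2. In cluster 8 the list had 0 of 11 called and a median of -0.12, beside 0.316% higher and 0.56% lower over all genes.

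Of the zinc and metal genes 2 of 22 were called higher in cluster 4 and 0 lower (1.5% and 0.655% of all genes), with a median log2 ratio of -0.10. Slc30a1, which encodes a zinc exporter of the cell membrane, stood at 0.453, 0.708, 0.569 and 0.389 per 10000 UMIs, and Slc39a8, a zinc and manganese importer gene, at 0.272, 0.298, 0.239 and 0.247. In neither gene did the hashtag 3 brain stand apart as it did for Mt2. Hmox1, which encodes heme oxygenase, was lowest at a median of -1.33 in cluster 4 and -1.58 in cluster 8, and in cluster 8 it stood at 0.0595, 2.49 and 0.245 in the brains with hashtags 1, 3 and 4. Cluster 8 had 0 of 22 called and a median of -0.25, beside 0.316% higher and 0.56% lower over all genes.

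The genes most like each member were ranked by Pearson r of log2 levels over the 35 combinations, which share clusters, brains and the library, among 12669 genes. Mt1 and Mt2 were each other's closest gene, with r of 0.90. After it came Car13 (0.77), Cope (0.74), Gja1 (0.74) and Dpep1 (0.72) for Mt1, and Hilpda (0.82), Angptl4 (0.80), Car13 (0.79) and Timp1 (0.78) for Mt2. For Mt3 the 5 were Ttr, Chchd10, 1500015O10Rik, Ppp1r1b and Fxyd1, with r of 0.97 or 0.98. Those for Sgk1 were Rbm47, Ddx3x, Man1a, Tmem59 and Arl6ip1, with r of 0.93 or 0.94.

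Tsc22d3 was most like Rnase4 (0.91), Sat1 (0.89), Arhgef1, Dazap2 and H2-T23 (0.88 each). Apod was most like Ptn (0.83), Mgp, Auts2, Slc38a2 and Slc25a18 (0.80 each), and Fkbp5 had lower values, from Cwc25 (0.78) through Bms1, Psmd8 and Zfos1 to Tnfaip6 (0.75). For Zbtb16 the 5 were Gm12840, Igfbp3, Tmem45a, Lama4 and Ctgf, from 0.88 to 0.72, on 39 UMIs. Between members the r was 0.75 for Mt3 with Sgk1, 0.70 for Mt2 with Fkbp5, 0.67 for Mt1 with Fkbp5, 0.23 for Fkbp5 with Tsc22d3 and -0.25 for Mt1 with Mt3. Fkbp5 and Sgk1, both glucocorticoid targets, stood at -0.61.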

How the data were processed

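The chemistry was the 3' v2 assay of 10x Genomics, per the labels' protocols, and CITE-seq-Count is named for the tags in the series' design text. In the authors' deposited table each value is a natural log, ln(1 + UMIs per 10000). Seurat 2.3.4, Cell Ranger 2.1 and mm10 stand in the submitters' processing notes, without roles. The deposited cell table gives the authors' UMI count, tag counts, mitochondrial fraction, hashtag class and cluster. Its p-values of the hashtag assignment, made by the authors, were not used. UMI counts were recovered from the deposited logged values: 99.8% of 11908458 nonzero values were whole within 0.01, and cell sums lay within 10 UMIs of the deposited totals. All cells were kept, without a doublet caller, and those whose own hashtag gave 80% or more of the hashtag counts served as a check.

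Counts were summed per cluster and brain with at least 20 cells. Ratios used level plus 0.1, and a call needed a 2-fold ratio in 1 direction in every brain, over genes found in 1% of cells or more. No test was run, because brains have no known group and the members and lists were chosen with earlier results of these data known. The call rule was also run on simulated counts, which held counting error but no spread between brains. That run therefore does not give the error rate of the rule in these cells. Python 3.11.15, numpy 2.4.6, scipy 1.17.1 and pandas 2.3.3 were used. Named genes were the 8 members, up to 4 highest and 2 lowest of each list, the 5 genes most like each member, cluster markers, Ttr and Rhox5. The order of the brains, cells above a level, the ratio to Ttr, the ranges of cluster 8 and the genes that follow Mt2 across cells of cluster 4 were added after values had been seen. Alternatives covered the mean over cells, the pseudocount, clear hashtags, a lower cell minimum, other totals and scales, thinning and leaving out each brain.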

Additional observations from a re-analysis of the deposited data

How the results depend on the processing

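Of 442 values recomputed under other settings, 380 moved by less than the spread between brains or by less than 1.5 times for a count, and 62 moved further. No paired analysis was possible because no groups of brains were compared; clusters were set against each other within each brain. Depth limits Zbtb16 most, with 39 UMIs, and the hashtag 2 brain, with 410 cells. The cause of each change below was not tested.

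The log2 ratio of the leading to the next cluster was 0.22 for Mt1 (cluster 4 to 7), and became 0.59 as a mean over cells, 0.28 in cells with at least 80% of hashtag counts from their own hashtag (clear cells) and 0.15 with median-of-ratios size factors. For Tsc22d3 (cluster 3 to 4) it went from 0.80 to 0.52 as a mean over cells and 0.61 with a pseudocount of 1. For Fkbp5 (cluster 10 to 0) it went from 0.28 to 0.57, and for Apod (cluster 8 to 4) from 1.01 to -0.23, in clear cells. This change of sign rests on 2 brains that went opposite ways, hashtag 1 (1.12 against 3.31) and hashtag 4 (3.15 against 1.49), with the hashtag 3 brain (21.5 against 3.07) left out at 16 cells. For Zbtb16 (cluster 4 to 8) it went from 0.31 to 0.67 as a mean over cells, and to 0.83 and 0.04 with pseudocounts of 0.01 and 1.

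In cluster 4, 190 genes were called higher and 83 lower. A pseudocount of 0.01 gave 347 and 338, and one of 1 gave 23 and 14. Clear cells gave 18 lower and pooling all other cells 8 lower. Leaving out each brain gave 197 to 294 higher, most without the hashtag 4 brain, and 90 to 125 lower, most without the hashtag 3 brain. Of the members, 0 to 1 were called higher when each brain was left out, and 0 to 1 lower. Apod was the 1 called higher in clear cells and against all other cells pooled, and Mt3 the 1 called lower with a total without Ttr and mitochondrial genes and with size factors.

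In cluster 8, 40 genes were called higher and 71 lower. A pseudocount of 0.01 gave 110 and 526, and one of 1 gave 3 and 2. The count of lower genes was 142 in clear cells, 43 with a minimum of 10 cells and 1 against all other cells pooled. Leaving out each brain gave 40 to 129 higher and 71 to 282 lower, both most without the hashtag 4 brain; without the hashtag 1 brain 68 were higher and without the hashtag 3 brain 140 lower. Of the members 1 to 2 were then called higher, and 2 (Mt3 and Apod) as a mean over cells and against all other cells pooled. With a pseudocount of 1 this was 0, and in clear cells 0 higher and 1 lower (Sgk1).

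Without thinning, the median share of cells with a UMI in cluster 4 was 92.4% in place of 82.7% for Mt1 and 17.6% in place of 7.06% for Fkbp5, and in cluster 3 it was 64.4% in place of 51.8% for Tsc22d3. Of the 40 genes most like the members by Pearson r, 15 were also among the 5 by Spearman rho. The alternatives for the order of the brains were chosen after seeing the data. Members highest in the hashtag 3 brain in every cluster went from 3 to 1 (Mt2) in clear cells, to 0 over 8 clusters with at least 10 cells of every brain, and to 3 to 4 when each other brain was left out, with Fkbp5 added without the hashtag 4 brain. For the hashtag 2 brain the count went from 0 to 1 (Sgk1) in clear cells, and to 0 to 1 when brains were left out, with Sgk1 added without the hashtag 1 brain.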

Other observations

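Among the genes highest in the hashtag 3 brain in all of clusters 1 to 5, Rbm3 and Cirbp encode RNA-binding proteins known to rise in the cold. They were picked out after their values had been seen. Cirbp stood in cluster 1 at 0.834, 0.757, 1.57 and 0.850 per 10000 UMIs in the brains with hashtags 1 to 4, and in cluster 4 at 1.48, 1.83, 1.91 and 0.960. Rbm3 stood in cluster 3 at 4.06, 5.25, 11 and 6.01, and in cluster 4 at 4.86, 3.95, 7.23 and 5.31. The median log2 ratio of the hashtag 3 brain to the mean of the others over the 5 clusters was 0.77 for Cirbp and 0.68 for Rbm3, beside 1.74 for Mt2 and 0.73 for Mt1. Slc43a2, Vti1a and Xpa had 1.04, 0.78 and 0.75.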
